A study of Mus musculus with 2 samples.

Results

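The genes described here are 8 tubulin isotype genes of the mouse, 4 for β-tubulin (Tubb2a, Tubb2b, Tubb5 and Tubb4b) and 4 for α-tubulin (Tuba1a, Tuba1b, Tuba1c and Tuba4a), out of 27933 gene symbols counted. They were selected on measured values, because the UMIs of Tubb2a and Tubb2b differed between the libraries over all cells, so that difference is a description here and supports nothing, and no threshold on a value decided which other isotypes were taken. All 8 were detected in both libraries. Thymocytes, T cell precursors in the thymus, were loaded at 5000 cells per sample for droplet-based single-cell RNA sequencing from the 3′ end. One library came from wild type mice and the other was labelled as homozygous mutant at GATA site 1 and 2 of NMe, an enhancer of the proto-oncogene Myc, and the labels give no age, sex or strain for either. Below they are called wild type and mutant. Each genotype had 1 library, so every comparison is between these libraries and not between genotypes, no test exists, and each interval is a 95% interval for counting error only. Levels are UMIs (unique molecular identifiers, 1 per captured RNA molecule) per 1000000 UMIs of the same cells, written CPM, and log2 ratios are mutant over wild type.

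Microtubules are hollow polymers of heterodimers of 1 α- and 1 β-tubulin, and they carry cargo in resting cells and build the spindle in mitosis. Vertebrates hold several genes for each subunit, whose proteins differ mostly in their tails, and tissues and cell states use them in different mixtures. Cells also adjust tubulin RNA to the pool of free heterodimers: the adaptor Ttc5 binds the first residues of a tubulin chain as it leaves the ribosome, and the RNA being translated is then degraded. Thymocytes pass from a CD4- CD8- double-negative (DN) stage, where NOTCH signals drive division, through a burst of division into small resting CD4+ CD8+ double-positive (DP) cells, and then through selection to CD4+ or CD8+ single-positive (SP) cells.

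Tubb2a and Tubb2b lie next to each other on the minus strand of chromosome 13, at chr13:34074274-34078007 and chr13:34126748-34130466 in the GRCm38 (mm10) build of the GENCODE annotation, with 48740 bases between them. Tuba1b, Tuba1a and Tuba1c lie in that order on chromosome 15, at chr15:98931425-98934565, chr15:98949837-98953703 and chr15:99029891-99038110. Tubb5 was found at chr17:35833921-35838306, Tubb4b at chr2:25222160-25224702 and Tuba4a at chr1:75214228-75219865. The first 30 coding bases of 6 members are shown because their first 4 codons, in capitals, encode the stretch that the degradation of tubulin RNA depends on. In the α members shown that stretch is spelled the same. In the β members its arginine and glutamate codons are spelled differently, while the encoded residues are the same.
Tubb2a: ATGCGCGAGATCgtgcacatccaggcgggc
Tubb2b: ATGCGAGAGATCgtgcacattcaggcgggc
Tubb5: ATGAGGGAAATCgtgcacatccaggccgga
Tubb4b: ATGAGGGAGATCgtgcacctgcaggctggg
Tuba1a: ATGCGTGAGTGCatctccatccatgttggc
Tuba1b: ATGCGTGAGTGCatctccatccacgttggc

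How well the isotypes can be told apart depends on the transcript end, which is where this assay reads. The coding sequences of Tubb2a and Tubb2b were 96.5% identical, while the last 400 bases of their transcripts, aligned over their whole length, were 46.2% identical. None of the 351 windows of 50 bases in the last 400 bases of Tubb2b, Tubb5 or Tuba4a occurred in another annotated gene. In Tubb2a 31.9% of the windows also occurred in Tubb2b or a Tubb2a pseudogene, and in Tubb4b 29.3% occurred in pseudogenes. For Tuba1a, Tuba1b and Tuba1c the shares were 43.9%, 53.3% and 59.3%, each with the other two and with pseudogenes. How reads that match several genes were counted is not given in the sources used here, so the split within the Tuba1 genes, and part of the Tubb2a level, is uncertain.

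The RefSeq table of promoters (GRCm38.p6) held 7 of the 8 members, all but Tubb2b. Windows from 250 bases before to 50 bases after the start were searched on both strands for CCAAT (bound by NF-Y, frequent in genes of the cell cycle), TATAAA (the TATA box), TTTGAA (core of the cell cycle homology region), CACGTG (an E-box), AGATAA (read by GATA factors) and TGACGTCA (the cyclic AMP response element). The 250 upstream bases of Tubb2a and Tubb4b are shown, as those of the β members in that table with the smallest and the largest ratio of G2/M over resting DP-like cells, with these motifs in capitals.
Tubb2a, chr13:34078009-34078258, minus strand: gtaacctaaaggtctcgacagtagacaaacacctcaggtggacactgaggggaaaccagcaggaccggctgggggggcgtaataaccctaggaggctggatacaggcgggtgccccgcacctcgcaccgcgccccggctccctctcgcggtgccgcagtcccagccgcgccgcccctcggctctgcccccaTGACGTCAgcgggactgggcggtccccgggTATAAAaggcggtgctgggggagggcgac
Tubb4b, chr2:25224703-25224952, minus strand: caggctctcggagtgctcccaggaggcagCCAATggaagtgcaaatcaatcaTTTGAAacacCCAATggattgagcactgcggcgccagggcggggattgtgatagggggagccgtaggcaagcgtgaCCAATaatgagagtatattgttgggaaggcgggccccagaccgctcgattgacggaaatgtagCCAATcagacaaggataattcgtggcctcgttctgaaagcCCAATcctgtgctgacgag
The Tubb2a window held 1 TATAAA, at -29 from the start, 1 TGACGTCA, at -59, and no CCAAT. The Tubb4b window held 5 CCAAT and 1 TTTGAA, and also 1 TATAAA, which lies 19 bases after the start and so outside the bases shown. Over all 32851 windows of this length, 37.4% held CCAAT, 13.6% TATAAA, 17.9% TTTGAA, 7.15% CACGTG, 11.2% AGATAA and 1.79% TGACGTCA. CCAAT was also present in the windows of Tubb5, Tuba1a and Tuba1c and not in those of Tuba1b and Tuba4a, and the Tubb5 window also held 1 CACGTG, at -75, and 1 AGATAA, at -206. A match is a description of these letters, and says nothing of a factor bound there.

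The wild type library kept 1340 cells with a median of 3328 UMIs and the mutant library 1727 cells with a median of 2595. The lowest totals per barcode before filtering were 1781 and 1416 UMIs, and 1 barcode occurred in both libraries. Stage and phase were set from the summed UMIs of marker lists that hold no tubulin gene, so each class is a range of marker levels and not a cell type. Among resting cells, which carried few UMIs of S and G2/M genes, the DN-like class held 36 wild type and 154 mutant cells, the DP-like class 265 and 446, the post-selection-like class 156 and 234, and the SP-like class 153 and 326. Dividing DP-like cells were split into S (76 and 39 cells), S to G2 (223 and 76) and G2/M (109 and 56). Resting DP-like cells held 927 and 787 CPM of Rag1, and resting DN-like cells 554 and 1098 CPM of Il2ra. Each DN marker was lower in the wild type than in the mutant DN-like class, with sums of 2209 and 4233 CPM. In wild type Kit, Erg and Dtx1 had only 1, 2 and 10 UMIs there. The DN-like class held DP markers too, with medians of 22.9 and 34.7 DP-list UMIs per 10000. Between 0.8 and 1.25 times a limit, or between stages of nearly equal score, lay 242 and 295 cells for stage and, by the same range, 194 and 164 for phase. Of all kept cells, 52.9% in wild type and 77.6% in mutant were resting, so values over all cells mix the phases in different proportions.

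Over all cells 6 of the 8 isotypes were lower in the mutant library, with the lowest ratios for Tubb2b and Tubb2a. Tubb2b, a β isotype best known from developing neurons, was counted at 218 CPM in wild type against 73.2 in mutant, 2.99-fold lower, and Tubb2a, its near copy, at 155 and 67.5 CPM, 2.30-fold lower. Tubb5, the main β isotype of dividing cells, was at 2185 and 1725 CPM, and Tubb4b at 418 and 310. Among the α isotypes Tuba1b, the most abundant, was at 2024 and 1439 CPM, Tuba1c at 127 and 98.2, and Tuba1a was equal, at 162 and 162 (log2 ratio -0.01, -0.13 to 0.12). Tuba4a, which carries no encoded C-terminal tyrosine and is abundant in muscle and platelets, was the one isotype higher in the mutant, at 58.6 and 85.5 CPM. Of 2961 genes measured in this comparison (50 CPM in 1 library and 20 UMIs in all), 0.574% were lower and 2.16% higher in the mutant by 2-fold or more, and the members past it were Tubb2a and Tubb2b. Since the members were picked for that contrast, nothing is read from their count.

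Dividing the cells by phase changed most of these values. In resting cells of all stages the mutant held 764.5 CPM of Tubb5 against 753 in wild type, 56.9 of Tubb4b against 57.8 and 202 of Tuba1b against 183. Thus for these 3 genes the ratios in resting cells had intervals that include equality, with log2 ratios of 0.02 (-0.07 to 0.11), -0.02 (-0.35 to 0.31) and 0.14 (-0.04 to 0.32). Tubb2b in the same cells was at 274 CPM in wild type against 62.0 in mutant (log2 ratio -2.14, -2.37 to -1.92), and Tubb2a at 74.6 and 39.3 CPM (log2 ratio -0.92, -1.26 to -0.59). Resting cells supplied part of the UMIs on which the Tubb2 pair was picked, so nothing is read from these ratios of the pair. They also pool stages. DP-like cells gave 503 out of 573 resting Tubb2b UMIs for wild type, and 169 out of 235 for the mutant. For SP-like cells the intervals include equality, with log2 ratios of 0.05 (-1.21 to 1.45) for Tubb2a and -0.74 (-1.65 to 0.19) for Tubb2b. The part of stage in the resting values of the pair was not tested. The resting value of Tubb5 pools stages that ran opposite ways. Its log2 ratio was -0.42 (-0.58 to -0.25) in DP-like and 0.64 (0.45 to 0.83) in post-selection-like cells. It was 0.41 (0.07 to 0.76) in DN-like, 0.26 (0.02 to 0.50) in low-marker and -0.006 (-0.20 to 0.20) in SP-like cells. The mix of stages among resting cells also differed between the libraries.

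Among the 4 resting stages, Tubb2b was concentrated in DP-like cells. In wild type it was counted at 11.9 CPM in resting DN-like cells (2 UMIs), 818 in DP-like, 80.5 in post-selection-like and 38.8 in SP-like cells. In the mutant the same classes held 11.5 (6 UMIs), 186, 26.1 and 23.1 CPM. The DP-like class was the highest of the 4 in both libraries, with an interval clear of the other classes. In wild type the post-selection-like level (56.4 to 112) and the SP-like level (23.3 to 60.5) had overlapping intervals. Tubb2a was also highest in DP-like cells, on a lower scale, at 5.95, 205, 29.1 and 16.3 CPM in wild type against 7.64, 108, 16.3 and 16.9 CPM in mutant. Resting DP-like over SP-like cells, Tubb2a and Tubb2b were the members higher by 2-fold or more, 2 of 7 measured in each library, where 25% of the 3152 genes measured in wild type and 23.3% of 3339 in mutant were. Both genes were below 50 CPM in SP-like cells and counted as measured only through the DP-like class, where they are high. Nothing is read from this count, which is also near the share over all genes.

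**Figure D1:**
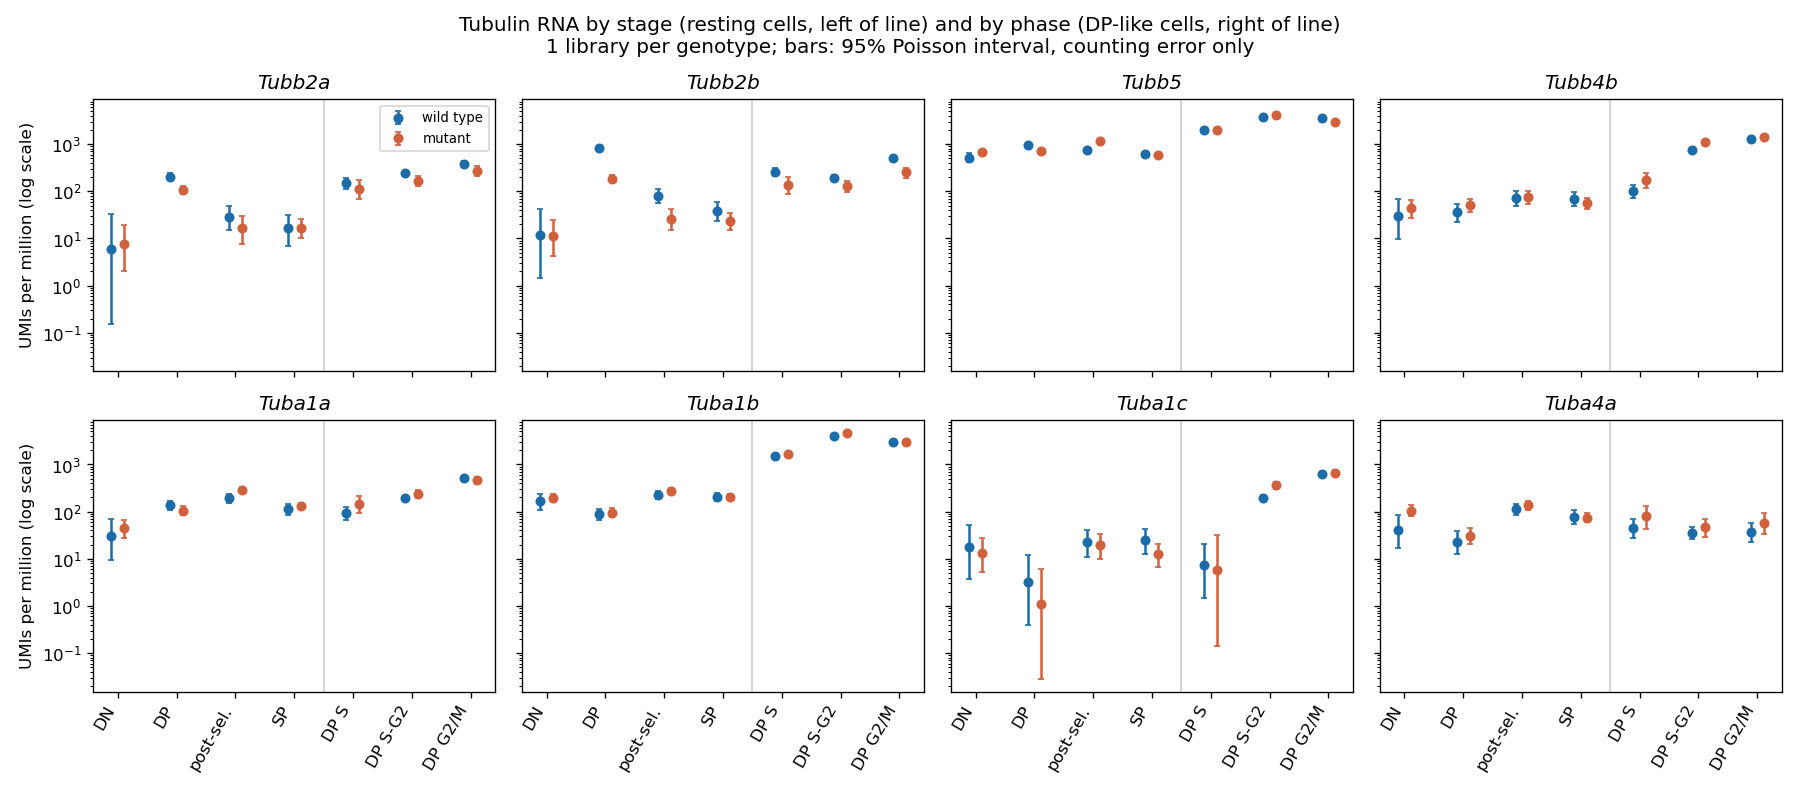
Level of each of the 8 isotypes in CPM (log axis) in resting cells of 4 stages (left of the line) and in DP-like cells of 3 phases (right of it), wild type in blue and mutant in orange, with 95% Poisson intervals. Tubb2b stands at 818 in wild type and 186 in mutant resting DP-like cells, while Tubb4b, Tuba1b and Tuba1c are highest in dividing cells of both libraries.

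Of the resting stages, the libraries stood furthest apart in Tubb2b in DP-like cells. These held 503 Tubb2b UMIs in 265 wild type cells and 169 in 446 mutant cells, 4.40-fold lower in the mutant (log2 ratio -2.14, -2.40 to -1.88). Tubb2a was 1.90-fold lower (log2 ratio -0.93, -1.32 to -0.53), Tubb5 went from 947 to 709 CPM (-0.42, -0.58 to -0.25) and Tuba1a from 138 to 106 (-0.39, -0.82 to 0.05). Tubb4b at 35.8 and 50.6 CPM, Tuba1b at 89.5 and 94.7 and Tuba4a at 22.8 and 30.8 had intervals of the ratio that include equality, and Tuba1c had 2 and 1 UMIs. Tubb2b was the 1 member of 6 measured that was lower by 2-fold or more, where 0.776% of 3351 genes were, and it was the sixth lowest of them. The median log2 ratio of all genes measured in this class was 0.11, and that of the 6 members -0.39. Tubb2b was picked for its difference over all cells, and this class gave 34.8% and 36.7% of its UMIs. Nothing is therefore read from this count, rank or median of members.

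More cells held the Tubb2b RNA in wild type. With every cell thinned to 1500 UMIs, and 54 shallower mutant cells left out, 55.8% of wild type resting DP-like cells (49.6% to 61.9%) and 19.1% of mutant ones (15.4% to 23.4%) held at least 1 Tubb2b UMI. Unthinned, the shares were 64.5% and 23.1%, at medians of 2112 and 1827 UMIs per cell. At least 5 Tubb2b UMIs were found in 14 wild type cells and 1 mutant cell after thinning. For resting DN-like cells, where the gene was nearly absent, the thinned shares were 2.78% of 36 cells and 1.32% of 152, at medians of 4230.5 and 2918 UMIs. For Tubb2a the resting DP-like shares were 23.4% (18.4% to 29.0%) and 14.3% (11.0% to 18.1%), and for Tubb5 72.1% and 58.7%.

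**Figure D2:**
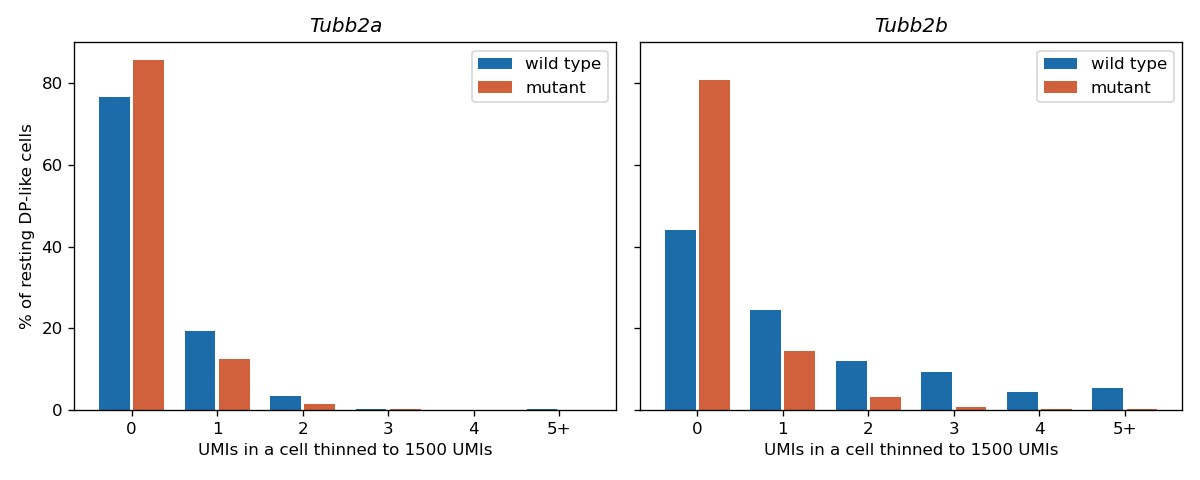
Share of resting DP-like cells (vertical axis, percent) by number of Tubb2a or Tubb2b UMIs after each cell was thinned to 1500 UMIs, wild type in blue and mutant in orange. Tubb2b was at 0 in 44.2% of wild type and 80.9% of mutant cells, and for Tubb2a the bars differ less.

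Resting DP-like cells were also divided by depth and by markers, as a description of the same cells and UMIs. For depth, cells were taken from 1781 to below 2200 UMIs, from 2200 to below 2800 and of 2800 or more. These ranges held 154, 73 and 38 wild type cells and 101, 88 and 42 mutant cells. Mutant cells below 1781 UMIs, a large part of the 446 in the class, were thus left out, and the last range has no upper limit. The log2 ratio of Tubb2b in the ranges was -2.26 (-2.83 to -1.74), -1.89 (-2.36 to -1.45) and -1.51 (-2.13 to -0.93). For Tubb2a the same 3 ratios were -0.88, -0.48 and -0.16, the last 2 with intervals that include equality. Markers of the earlier DN stage summed to 87.9 CPM in wild type against 241 in mutant cells of this class. In cells with no UMI of that list Tubb2b was at 819 CPM in 227 wild type cells and 204 in 296 mutant cells (log2 ratio -2.01, -2.31 to -1.71). With at least 1 such UMI it was at 815 CPM in 38 and 155 in 150 cells. Cells with at least 1 Rag1 UMI held 846 CPM in wild type against 189 in mutant, and cells with none 690 and 180, with overlapping intervals in each library. Limits were set on marker sums, so cells of different maturity can still be mixed in different proportions in the libraries, and this was not tested.

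In post-selection-like cells Tubb2b was at 80.5 CPM in wild type against 26.1 in mutant (36 and 16 UMIs, log2 ratio -1.63, -2.58 to -0.74), and it was the 1 of 6 measured members lower by 2-fold or more, where 0.82% of 3049 genes were. With each cell thinned to 1500 UMIs, 11 UMIs remained in each library and the ratio was -0.49, so the 2-fold difference was lost. Nothing is read from that count of members either, as Tubb2b was picked for its difference between the libraries. Other isotypes ran the opposite way there: Tubb5 was at 749 and 1170 CPM (log2 ratio 0.64, 0.45 to 0.83) and Tuba1a at 192 and 293 (0.61, 0.23 to 1.00). Of the 7 markers of this class, Cd69 was at 174 and 293 CPM, Nr4a1 at 123 and 270 and Itm2a at 1253 and 1556, while Cd5 (441 and 448), Cd28 (957 and 989), Egr2 (53.7 and 52.1) and Tox (848 and 763) were nearly level or lower in the mutant. The part of this in the tubulin values was not tested. In SP-like cells all 8 isotypes had intervals of the ratio that include equality, Tubb2b at -0.74 (-1.65 to 0.19), or 0.33 with thinning. The Tubb2 pair was below 50 CPM there, so it is not among the 5 members measured, of which none was lower by 2-fold, where 0.38% of 2367 genes were. Resting DN-like cells held 1 and 4 Tubb2a UMIs, too few for a ratio to be read. In them Tuba4a was at 41.7 CPM in wild type (7 UMIs) against 105 in mutant (55 UMIs), with a log2 ratio of 1.33 (0.19 to 2.71), and Tubb5 at 518 and 687 CPM (0.41, 0.07 to 0.76). The DN-like classes of the libraries differ in their DN markers, as given above, and the part of that in these ratios was not tested.

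**Figure D3:**
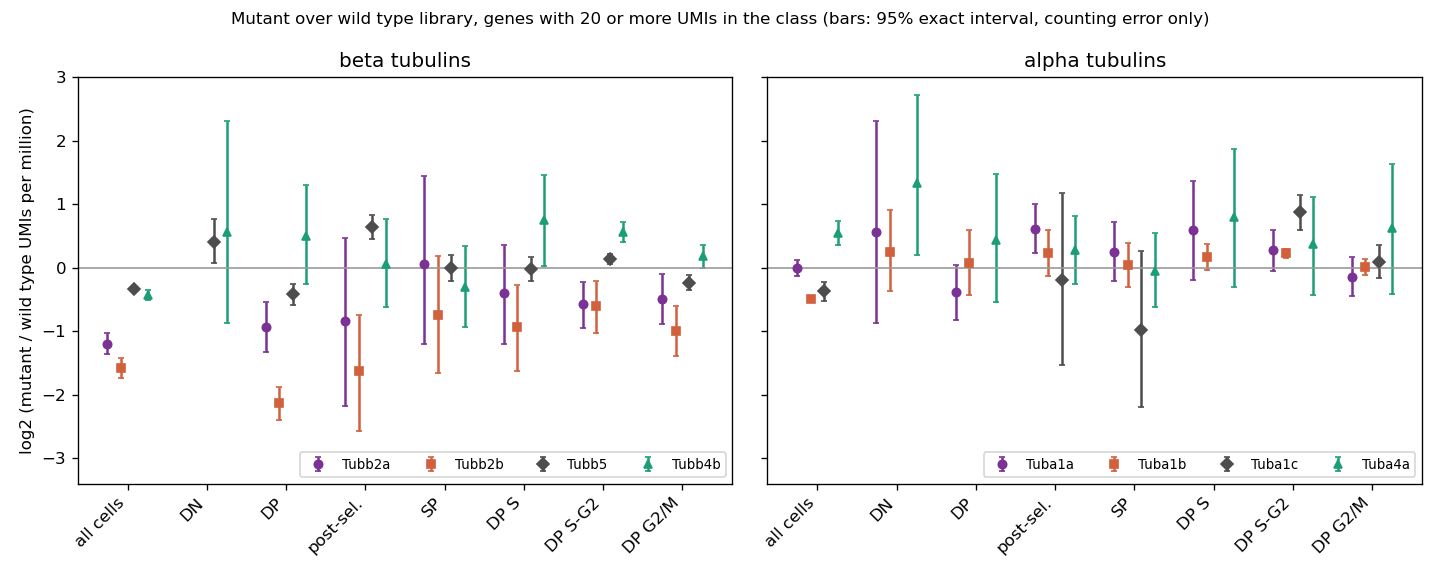
Log2 ratio of mutant over wild type (vertical axis) for the β isotypes (left) and α isotypes (right), over all cells, in 4 resting stages and in 3 phases of DP-like cells, with exact 95% intervals and only where a gene had 20 or more UMIs. Tubb2b is below 0 in every class drawn, from -2.14 in resting DP-like to -0.61 in S to G2 cells, though its interval includes 0 in SP-like cells.

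Across the cell cycle the isotypes fell into several kinds of profile. As counted, the ratio of G2/M over resting had the same direction in both libraries for all but Tubb2b. Tuba1b and Tubb4b were lowest in resting DP-like cells and rose steeply with division. Tuba1b was counted at 89.5 CPM in resting, 1487 in S, 4008 in S to G2 and 2962 in G2/M cells of wild type, and at 94.7, 1667, 4681 and 2983 in mutant. It was already high in S, whereas Tubb4b came later: 35.8, 101, 736 and 1264 CPM in wild type against 50.6, 171, 1088 and 1430 in mutant. Latest was Tuba1c, with 2 resting and 3 S-phase UMIs in the wild type library, 1 and 1 in the mutant one, and then 197 and 623 CPM in S to G2 and G2/M cells of wild type and 361 and 667 of mutant. G2/M over resting, that is a ratio of 192 (52.6 to 1588) in wild type, against 606 (107 to 24053) in mutant, set by those few resting UMIs. Tubb4b was 35.3-fold and 28.2-fold higher in G2/M than in resting cells, and Tuba1b 33.1-fold and 31.5-fold.

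Tubb5 and Tuba1a rose less, from resting levels that were already among the highest of their subunit. Tubb5 was at 947, 1978, 3678 and 3531 CPM through the same 4 phases of wild type and at 709, 1951, 4047 and 2990 of mutant, 3.73-fold and 4.22-fold higher in G2/M than in resting cells. Tuba1a, the α isotype best known from neurons, was at 138, 93.8, 195 and 513 CPM in wild type against 106, 142, 236 and 466 in mutant, with its highest level in G2/M. Tuba4a stayed between 22.8 and 45.7 CPM in wild type against between 30.8 and 79.7 in mutant, and its G2/M over resting ratio had an interval that includes equality in both. By a 2-fold limit 5 of 7 measured members were higher in G2/M than in resting DP-like cells of wild type, and 6 of 8 of mutant, where 11.3% of 3381 and 10.2% of 3658 genes were. Tubb4b and Tuba1c in wild type, and Tuba1c and Tuba4a in mutant, reached the limit of 50 CPM only in G2/M cells. Nothing is therefore read from these counts. Median UMIs per cell rose along with these levels, from 2112 and 1827 in resting to 4574 and 4845.5 in G2/M DP-like cells, and their part was not tested.

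Tubb2b did not follow this pattern. In wild type Tubb2b was at 818 CPM in resting DP-like cells, 260 in S, 196 in S to G2 and 499 in G2/M, so its lowest levels were in the S and S to G2 classes. In the mutant the same phases held 186, 137, 129 and 251 CPM. G2/M over resting, the log2 ratio was -0.71 (-0.93 to -0.50) in wild type, against 0.43 (0.01 to 0.84) in mutant, but 1 mutant cell gave 15 of the 70 G2/M UMIs, and without it the mutant value was 0.14 (-0.33 to 0.58). Tubb2a did follow the pattern of a rise in G2/M, though by less, at 205, 149, 249 and 377 CPM in wild type against 108, 114, 167 and 269 in mutant, 1.84-fold and 2.49-fold higher in G2/M than in resting cells. With thinning it had 77 UMIs in 265 resting and 63 in 109 G2/M cells of wild type. The mutant then held 64 in 392 and 10 in 51, so its larger rise was not kept. Of all Tubb2b UMIs, 34.8% of the wild type and 36.7% of the mutant ones came from resting DP-like cells, against 4.02% and 5.93% of Tubb5 UMIs. The DP markers also varied over these phases. Resting, S, S to G2 and G2/M DP-like cells held 7026, 3792, 3745 and 5481 CPM of them in wild type. In the mutant they held 7876, 3857, 3718 and 5496 CPM. Stage and phase thus cannot be told apart in these profiles, and the part of each was not tested.

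Between the libraries, the Tubb2 pair was lower in the mutant in dividing DP-like cells too. The log2 ratio of Tubb2b was -0.93 (-1.63 to -0.28) in S, -0.61 (-1.03 to -0.20) in S to G2 and -0.99 (-1.39 to -0.61) in G2/M, and that of Tubb2a -0.39 (-1.20 to 0.36), -0.58 (-0.95 to -0.22) and -0.49 (-0.89 to -0.10). As counted, no member was lower by 2-fold or more in these 3 classes, where 2.7% of 3115, 0.625% of 3200 and 1.55% of 3361 genes were. That count depends on the processing. With each cell thinned to 1500 UMIs Tubb2b was at -2.54 in S (35 UMIs in 76 cells against 3 in 38), -0.92 in S to G2 and -1.85 in G2/M, and Tubb2a at -1.56 in G2/M. With thinning the resting DP-like values were -2.25 and -0.83, so the order of resting and dividing cells in the size of the difference changes with this setting. In S to G2 cells Tubb4b (0.56, 0.41 to 0.72) and Tuba1c (0.87, 0.59 to 1.15) were higher in the mutant. Tubb5 (0.14, 0.06 to 0.21) and Tuba1b (0.22, 0.15 to 0.30) were also higher by this scaling, but with median-of-ratios scaling they were at -0.09 and -0.001, and all genes of that class had a median of 0.20. In G2/M cells Tubb5 was lower in the mutant (-0.24, -0.36 to -0.12). In cells with few stage markers, Tubb2b in S to G2 was at 118 CPM in wild type (96 cells) against 39.0 in mutant (98 cells), a log2 ratio of -1.60 (-2.23 to -1.004). In S it was -0.46 (-1.44 to 0.41) and in G2/M 0.91 (-0.22 to 2.07), where 1 of 10 mutant cells gave 82.4% of 17 UMIs.

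Shares within a subunit do not depend on the scaling of a library. Wild type resting DP-like cells drew 51.0% of their β UMIs from the Tubb2 pair, and mutant ones 27.9%. In the wild type Tubb2b alone gave 40.8% (38.0% to 43.6%) and Tubb5 47.2% (44.4% to 50.03%), and in the mutant 17.7% (15.3% to 20.2%) and 67.3% (64.2% to 70.3%). Tubb2a held 10.2% in each. In the other resting stages Tubb5 held most β UMIs, from 80.5% in wild type post-selection-like cells to 91.6% in DN-like cells of either library, with the Tubb2 pair at 11.8% and 3.29% in post-selection-like cells. In G2/M DP-like cells Tubb4b reached 22.3% (20.9% to 23.8%) in wild type, against 29.0% (26.6% to 31.4%) in mutant, and Tubb5 62.3% and 60.5%.

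**Figure D4:**
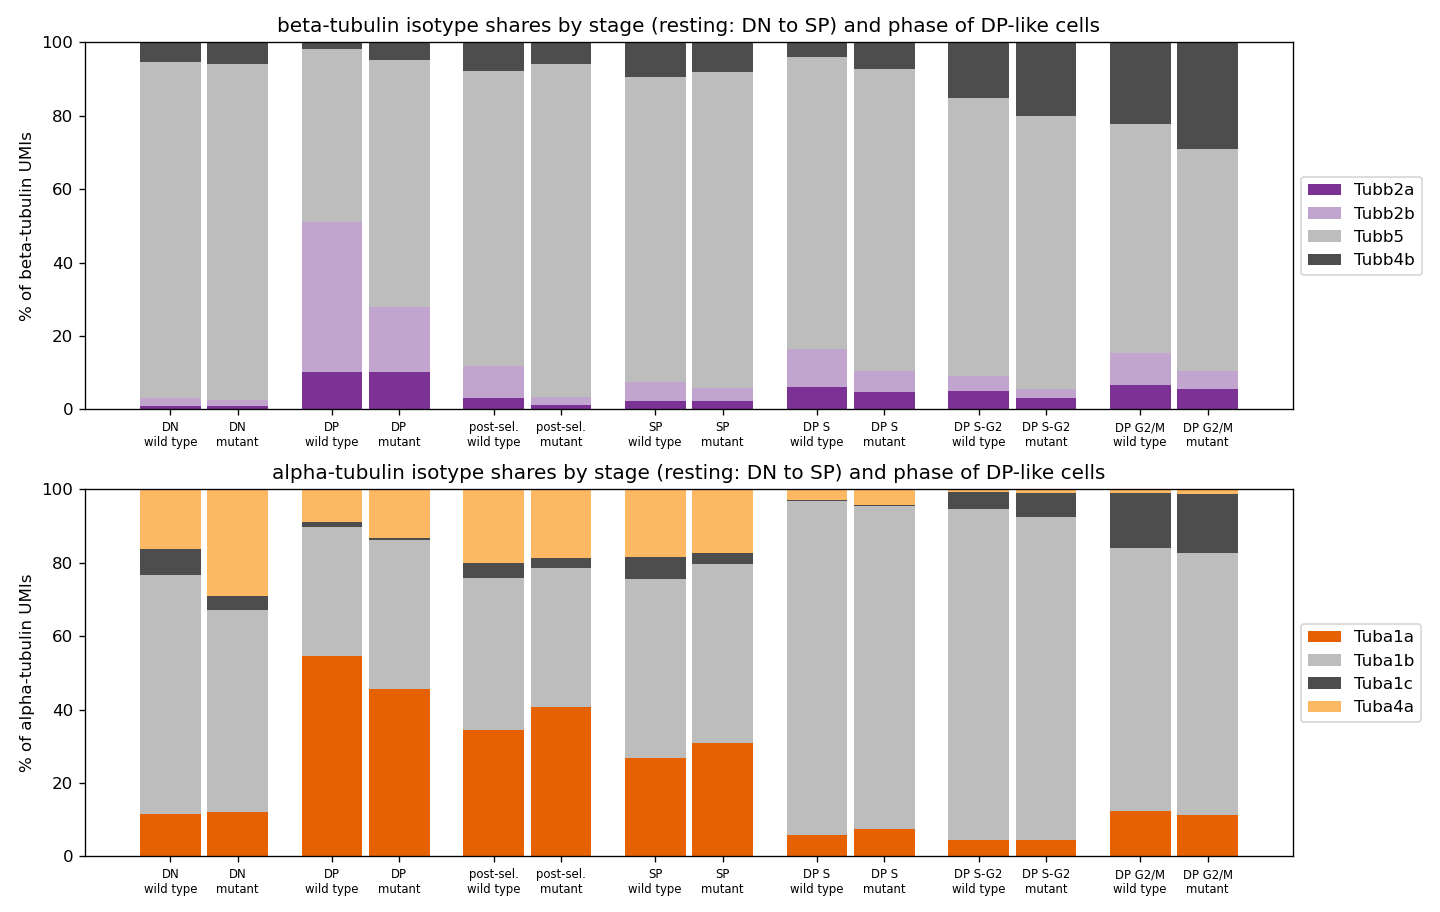
Stacked shares (vertical axis, percent) of the 4 β isotypes (top) and 4 α isotypes (bottom) among the UMIs of their subunit, for 4 resting stages and 3 phases of DP-like cells, wild type and mutant side by side. The Tubb2 pair makes up 51.0% of wild type and 27.9% of mutant resting DP-like β UMIs, and Tuba1b takes over the α UMIs in dividing cells.

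The α mixture turned over with division more than the β mixture. Tuba1a gave 54.5% (46.3% to 62.5%) of the α UMIs of wild type resting DP-like cells and 45.5% (38.6% to 52.5%) of mutant ones, and Tuba1b 35.3% and 40.8%. In S phase Tuba1b held 91.0% and 88.0%, and Tuba1a 5.74% and 7.51%. Tuba1c reached 15.1% and 16.0% in G2/M. Tuba4a gave 16.3% of the α UMIs of wild type resting DN-like cells (6.81% to 30.7%) and 29.1% of mutant ones (22.7% to 36.1%). In post-selection-like cells it gave 20.1% and 18.8% and in SP-like cells 18.5% and 17.4%, so the DN-like share was the highest of the resting stages in the mutant and not in wild type. It was near 1% in dividing DP-like cells from S to G2 on.

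Summed over their isotypes, α and β RNA did not stay in 1 ratio. In wild type resting DP-like cells 254 CPM of α stood against 2006 of β, 0.127 α UMIs per β UMI (0.106 to 0.150), and in the mutant 232 against 1054, 0.220 (0.189 to 0.256). In DP-like cells from S to G2 the ratio was 0.913 in wild type and 0.981 in mutant, and in resting SP-like cells 0.574 and 0.615. Resting DP-like cells thus held the fewest α UMIs per β UMI of the classes drawn, in both libraries. Capture of 3′ ends differs between genes and reads shared with pseudogenes may be lost. A ratio of 1 here is thus not 1 molecule to 1 molecule. The share of transcript-end windows found in other genes also differs between isotypes, from 0% for Tubb5 to 59.3% for Tuba1c. As the isotype mixture changes between classes and libraries, such losses may differ between them, and their part in these ratios was not tested.

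**Figure D5:**
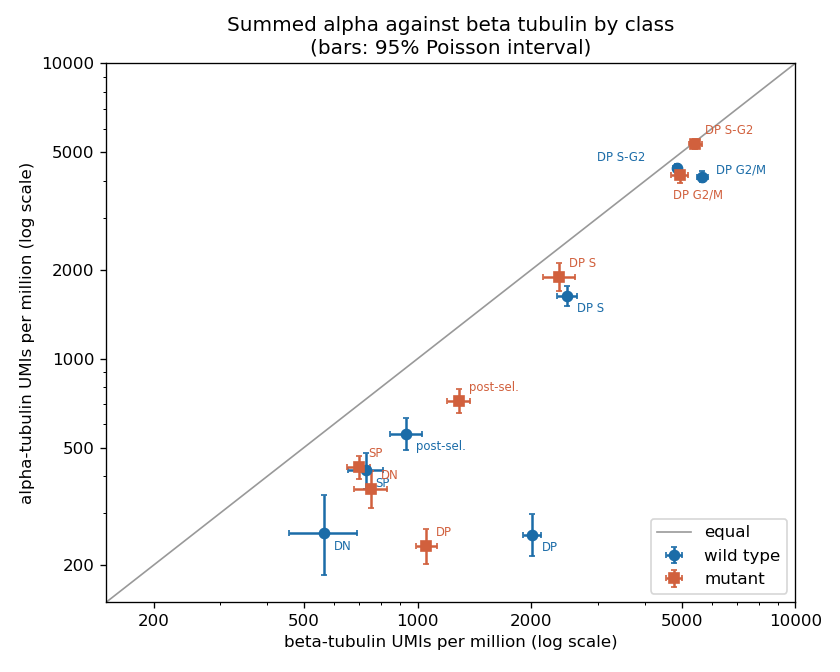
Summed α-tubulin (vertical) against summed β-tubulin (horizontal) in CPM, both on log axes, for the same 7 classes in wild type (circles) and mutant (squares), with 95% Poisson intervals and a line of equality. The resting DP-like classes lie furthest below the line, at 254 against 2006 in wild type and 232 against 1054 in mutant.

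Among the groups of library, stage and phase with at least 20 cells, 22 in all, the genes whose profile was most like that of Tubb2b included Tdrd5 (Pearson r 0.893), Tubb2a (0.887), Rcbtb2 (0.884) and Bcl2l1 (0.881), out of 5143 genes of at least 50 CPM in some group. Bcl2l1 encodes the survival protein Bcl-xL. For Tubb2a the 5 most alike were Tomm22 (0.894), a subunit of the mitochondrial import pore, Tubb2b, Rcbtb2 (0.884), E2f2 (0.881) and Mns1 (0.875). For Tubb5 they were the mitotic kinase gene Cdk1 (0.972), which is on the G2/M list, Hmgn2 (0.962), the condensin genes Smc2 (0.962) and Ncapg (0.961), and Hnrnpa3 (0.959). Among members, Tubb5 and Tuba1b had r of 0.944, Tubb2b and Tubb5 0.407, and Tubb2b and Tuba4a -0.71. The groups share libraries and cells of 1 source, so these values rank likeness and carry no test.

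Genes that handle tubulin lay on both sides of equality over all cells. Of all genes 5628 were measured there at 20 CPM or more, 3493 higher and 2135 lower in the mutant, with a median log2 ratio of 0.08. The folding list holds the CCT chaperonin, prefoldin and the tubulin cofactors. It had 19 of 21 genes so measured, of which 11 were higher and 8 lower, with a median of 0.04. Its lowest genes were Tcp1 at 296 and 252 CPM (-0.23) and Pfdn6 at 146 and 129 (-0.18), and its highest the cofactor genes Tbca at 278 and 397 (0.52) and Tbcel at 37.3 and 57.8 (0.63). Of the list of microtubule dynamics and motors 22 of 27 were measured, 9 higher and 13 lower, with a median of -0.08. The spindle genes Prc1 (106 and 60.8 CPM, -0.80) and Ckap5 (36.6 and 22.2, -0.72) were its lowest and Dctn1 (21.6 and 28.6, 0.40) and Clip1 (16.9 and 29.4, 0.79) its highest. Of the genes of these lists and of the other 2 described next that were at 20 CPM or more, none reached 2-fold over all cells, where 0.444% of all genes were lower and 1.90% higher by that much.

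Of the other tubulin genes, 2 of 12 were at 20 CPM or more, both for non-polymer tubulins of the centrosome and basal body: Tubg1 at 73.4 and 52.7 CPM (-0.48) and Tube1 at 33.8 and 21.9 (-0.63). Below that level, and named after their values were seen, the β isotype Tubb3 had 53 and 107 UMIs (1.08, 0.60 to 1.59), the α isotype Tuba8 10 and 39 (2.03, 1.01 to 3.20) and Hdac6, a tubulin deacetylase, 17 and 33 (1.03, 0.14 to 1.96), all higher in the mutant. The list of modification and autoregulation had 6 of 16 measured, 5 higher and 1 lower with a median of 0.05, among them Ttc5, the adaptor of RNA autoregulation, at 28.1 and 33.6 CPM (0.26, -0.03 to 0.55), Svbp (0.09), Tpgs1 (0.04) and Ttll12 (-0.35). In resting DP-like cells alone the folding list was at a median of 0.17, with 14 of 19 higher, and the dynamics list at 0.11, with 11 of 13 higher. All genes of that class were at 0.10, with 3597 of 5984 higher. Named after its value was seen, Stmn1 of the dynamics list was there at 337 and 678 CPM (1.01, 0.78 to 1.24), against -0.52 over all cells. Fewer mutant than wild type cells were dividing, as given above, and the part of that in the values over all cells was not tested.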

How the data were processed

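The deposited files hold counts, whole numbers of UMIs for each barcode and each gene symbol, not normalized. The authors' counting used Cell Ranger and the build mm10, per the submitters' processing notes; versions are not given in the sources used here. Barcodes with at least 400 genes and at most 10% mitochondrial UMIs were kept (5 of 1346 wild type and 6 of 1737 mutant ones failed). Scrublet (scanpy 1.11.5, expected rate 4%) called 1 and 4 doublets, which were left out; at so few calls it has not worked, and doublets remain. Library totals were 6638880 and 6364506 UMIs.

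Cells were put in the stage whose marker UMIs per 10000 were highest relative to its limit (10 for DN-like, 25 for DP-like, 15 for post-selection-like and SP-like, 20 for innate-like, macrophage and erythroid, 50 for B and antigen-presenting, 15 for epithelial cells), and otherwise called low-marker. S-phase cells had 30 or more S-list UMIs, split at 100 G2/M-list UMIs, and G2/M cells 40 or more G2/M-list UMIs alone. The members and gene lists were chosen with earlier results of these data known. Stage and phase limits, depth ranges and motifs were set after the data were seen: the first limits (15 for the 4 thymocyte stages, 10 for epithelial cells) were looked at with tubulin values, then changed because DN cells carry Rag1 and Dntt, and are given as an alternative.

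UMIs were summed per class and library. Intervals at 95% are exact Poisson for levels, exact conditional for ratios and Clopper-Pearson for shares (scipy 1.17.1), and code was tested on simulated data. Text names all members, the 2 highest and 2 lowest measured genes of each list, and the 5 genes most like Tubb2a, Tubb2b and Tubb5 by Pearson r of log2(CPM + 5), without mitochondrial, ribosomal protein, sex-linked and haemoglobin genes; 1 gene is not reported here. Alternatives tried were thinning, a common lower limit of UMIs, other filters, scalings and limits, means over cells, and leaving out border cells or the top cell. Transcript sequences came from GENCODE and promoters from RefSeq.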

Additional observations from a re-analysis of the deposited data

Results flagged for a closer look

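As counted, the change of Tubb2b from resting to G2/M DP-like cells ran opposite ways in the libraries. The log2 ratio of G2/M over resting was -0.71 in wild type and 0.43 in mutant. The difference was not tested, since each genotype had 1 library. Without the cell with most Tubb2b UMIs in the G2/M class, which held 10 UMIs in wild type and 15 in mutant, the values were -0.74 (-0.96 to -0.52) and 0.14 (-0.33 to 0.58), so the rise in the mutant rested on 1 cell and the fall in wild type did not.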

How the results depend on the processing

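No paired analysis was possible because each genotype had 1 library and the labels give no replicate numbers, and no replicate could be left out. Over 13 settings, 686 values were recomputed: 577 stayed within the counting interval of the value reported (within 0.1 for a list median), 105 moved beyond it and 4 reversed. Leaving out the doublet caller, or any filter on cells, changed few cells, and each gave 68 of 68 values as unchanged. Tubb2b over all cells was at -2.001 with each cell thinned to 1500 UMIs and at -1.88 as a mean over cells. Its share of β UMIs in resting DP-like cells was 21.9% in the mutant as a mean over cells with at least 5 β UMIs, and 37.2% in wild type and 14.0% in mutant with the limits tried first. The log2 ratio of Tubb5 in S to G2 DP-like cells was -0.060 with thinning, -0.0057 without ribosomal protein and mitochondrial genes and -0.087 with median-of-ratios scaling, and that of Tuba1b there was -0.00088 with the last. Median-of-ratios scaling lowers every ratio over all cells by 0.11, and with it the list medians were -0.60 for other tubulin genes, -0.079 for folding, -0.19 for dynamics and motors and -0.066 for modification. With genes of at least 50 CPM the dynamics and motors median was -0.30. Tubb2b in resting DP-like cells of the mutant stayed below wild type in every setting run. The gene was picked for its difference between the libraries and every setting uses the same libraries, so nothing is read from that. Depth limits Tuba1c in resting and S-phase DP-like cells and the Tubb2 pair in resting DN-like cells, where 1 to 6 UMIs were counted.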
